A study of Mus musculus with 33 samples.

Results

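Glycolysis turns glucose into pyruvate and lactate, and its genes are the best known targets of the hypoxia-inducible factor (HIF). The 35 genes described here were taken by name from the 53735 gene names of each deposited table: 4 glucose and lactate transporters, 17 glycolytic enzymes, 3 regulatory enzymes that set the flow of sugar carbon, the oxygen-regulated subunit Hif1a with 2 of the prolyl hydroxylases that control it, and 8 other HIF targets. All 35 names were in all 9 tables.

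RNA was sequenced from 3 immune cell populations sorted from orthotopic pancreatic ductal adenocarcinomas grown from the KCKO cell line in C57BL/6 mice. All tumours carried titanium fiducial markers, which guide the radiation beam. In each population the treated groups were stereotactic body radiotherapy (SBRT, 4 fractions of 6 Gy on days 6 to 9), interleukin 12 (IL-12, 0.5 µg on 2 mg of microspheres put into the tumour on day 10, unirradiated) and both together, here called the combination, and the reference was unirradiated tumour. Empty microspheres were part of the protocol, but the labels do not say which groups received them, and they give no day of harvest. Inflammatory monocytes (IM, sorted as CD45+CD11b+Ly6C+Ly6G-) and CD8 T cells (CD8, sorted as CD45+CD8+) had 3 libraries in each of the 4 groups. Tumour-associated macrophages (TAM, CD45+CD11b+Ly6G-F480+ with moderate Ly6C) had 2 SBRT, 3 IL-12, 2 combination and 2 unirradiated libraries, so 33 libraries were sequenced in all. The labels do not state that each library came from a separate mouse, so the p-values reflect how much these libraries vary, which may be technical.

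The authors' deposited tables hold no value for a single library. They give each gene's mean normalised level over the libraries of a population, a log2 fold change of each treated group over unirradiated tumour, and the adjusted p of a Wald test run by the authors in DESeq2, and the depth of each library is unknown. A gene is said here to have risen or fallen only where that adjusted p was below 0.05. A value after ± is the standard error implied by the deposited fold change and Wald statistic. The 3 comparisons of a population share its unirradiated libraries, so they are not independent of each other. In sorted bulk RNA, fewer cells of a type and less RNA per cell cannot be told apart. The sorts held their labelled cells: in the deposited tables the mean level of Cd8a was 44253 in CD8 against 224 in IM and 239 in TAM, that of the macrophage complement gene C1qa was 113936 in TAM, 22138 in IM and 790 in CD8, and that of the monocyte gene Ly6c2 was 49540 in IM, 2391 in TAM and 16630 in CD8. Ly6c2 is known in activated T cells too.

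As background, hexokinases trap glucose in the cell as a phosphate, phosphofructokinases make the committed step, and lactate dehydrogenase A returns the pathway's cofactor by turning pyruvate into lactate. Under low oxygen the prolyl hydroxylases stop marking the alpha subunit for destruction, and HIF then binds short ACGTG or GCGTG cores near its targets. Pancreatic tumours are known for poor blood supply and low oxygen, and activated macrophages and T cells are known to raise glycolysis.

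In some of the enzyme and transporter families CD8 differed from IM and TAM in the main member, while IM and TAM resembled each other. Levels were compared between genes only per kilobase of exon, with exon lengths from GENCODE M21 on build GRCm38, and the populations were normalised apart, so shares within a population are given with no test. Hk3, a hexokinase known from myeloid cells, made up 84.6% of the summed level per kilobase of the 3 hexokinases in IM and 86.6% in TAM. In CD8 it made up 9.57%, and Hk1, the hexokinase of most tissues, made up 71.8%. Hk2, the inducible hexokinase, held 8.96% in IM, 8.63% in TAM and 18.6% in CD8. Of the glucose transporters, Slc2a1 held 98.2% of the family's level per kilobase in IM and 99.6% in TAM. In CD8 Slc2a1 still held the larger share, 57.9%, and Slc2a3, a high-affinity transporter, held 42.1%. The lactate exporter Slc16a3 held 88.0% of its pair in IM and 87.7% in TAM. In CD8 the larger share, 55.0%, was that of Slc16a1. Among the phosphofructokinases Pfkl held the largest share in IM, 50.7%, and in TAM, 56.5%, and Pfkp in CD8, 59.4%. The muscle form Pfkm was the least abundant of them per kilobase in all 3 populations, with 3.58% in IM, 6.89% in TAM and 3.78% in CD8. By level per kilobase the most abundant of the 35 genes was Pkm, which makes pyruvate, in IM, the cytokine gene Mif in TAM and the lactate dehydrogenase gene Ldha in CD8. That order depends on near-identical copies: with the level of each copy added to its gene, Eno1, the enolase of most tissues, came first in IM at 29065 per kilobase, against 21856 for Pkm. In CD8 the same sums put Ldha at 29656 and Eno1 at 29497, and in TAM Mif stayed first. P4ha2, Eno2 and Slc2a3 filled the lowest places in IM and TAM. With Slc2a3 near the middle in CD8, P4ha2 and Eno2 were the lowest pair there.

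**Figure D1:**
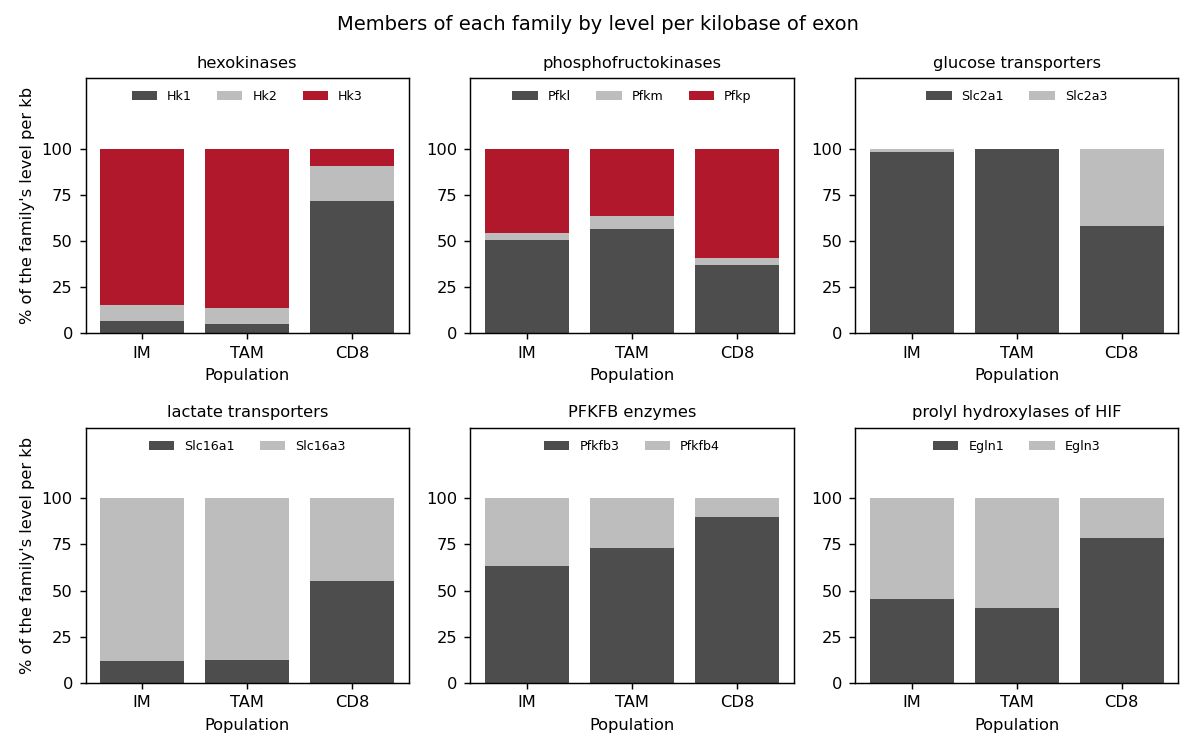
Bars show, for 6 families, the percent of the family's summed mean level per kilobase of exon (vertical axis) that each gene held in IM, TAM and CD8 (horizontal axis). Hk3 fills 84.6% of the hexokinase bar in IM and 86.6% in TAM, and Hk1 fills 71.8% in CD8.

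The most calls among the enzymes of glycolysis were in IM after the combination, 9 of 17, against 1 in TAM and 2 in CD8. These are 52.9% of the enzymes in IM, 5.88% in TAM and 11.8% in CD8. Beside them stand 6.72% of all genes tested in IM, 4.21% in TAM and 7.47% in CD8. The comparison is one of counts of calls, and most TAM groups had 2 libraries. The difference between IM and TAM itself passed for no member in the normal test as first run. The differences between IM and CD8 that passed depended on the spread assumed, as given below. By the deposited adjusted p, 16 of the 35 genes passed the test in at least 1 of the 9 comparisons, and 19 passed in none, with log2 fold changes between -0.46 and 0.51. The 4 transporters, Hif1a and both prolyl hydroxylases were among the 19: Slc2a1 lay between -0.25 and 0.31, Slc16a3 between -0.12 and 0.29, and Hif1a between -0.27 and 0.34 over the 9 comparisons. Of 312 gene and comparison pairs with an adjusted p, 22 were higher and 2 lower. The share of all genes called is given below for each comparison. For 3 pairs, Eno2 in CD8 after IL-12 and P4ha2 in CD8 after IL-12 and after the combination, the tables give no adjusted p.

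**Figure D2:**
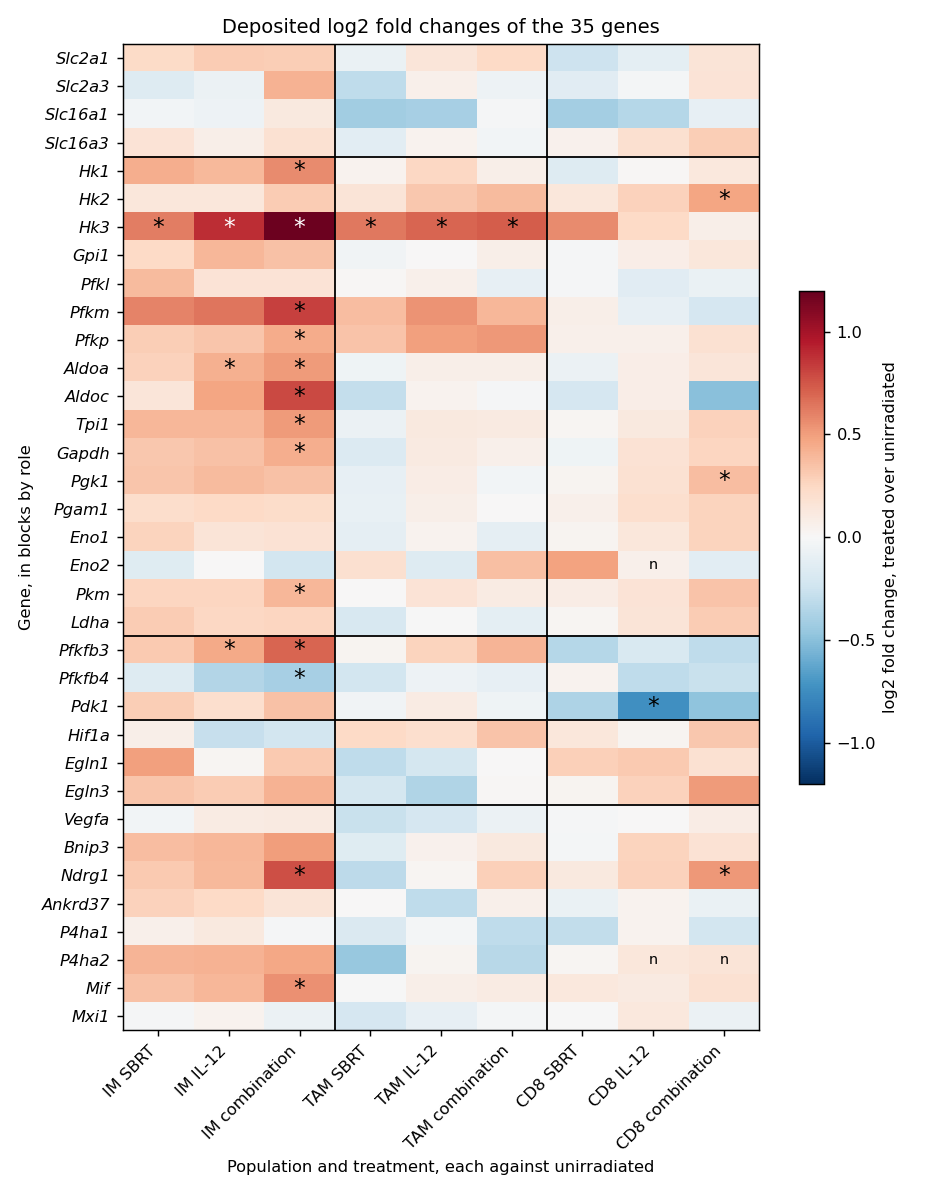
Colours show the deposited log2 fold change of each of the 35 genes (rows, in blocks of transporters, glycolytic enzymes, regulatory enzymes, HIF factor with prolyl hydroxylases, and other HIF targets) in the 9 comparisons (columns). Asterisks mark adjusted p below 0.05 and n marks no adjusted p: 13 asterisks stand in the IM combination column, and the Hk3 row is marked in all 6 IM and TAM columns.

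In IM the combination raised 12 of the 35 genes and lowered 1, Pfkfb4, in the authors' deposited table. These 13 are 37.1% of the genes, beside 6.72% called among all 18660 genes tested and 11.3% among the 6411 with a level of at least 1000. The 12 that rose are 34.3%, beside 3.69% of all genes tested and 6.47% of those with a level of at least 1000. The median log2 fold change of the 35 was 0.35, against -0.02 over all genes tested, and 30 of 35 were above 0. Of the 17 enzymes 9 rose, 16 had positive values and the median was 0.40. The summed level implied for the 35 genes by the deposited means and fold changes was 750227 in combination IM and 580771 in unirradiated IM.

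The 2 largest log2 fold changes in combination IM were those of the sugar kinases Hk3 and Pfkm. Hk3 (chromosome 13, 55005985 to 55021385, minus strand) had an implied mean level of 48449 in combination IM, 39426 in IL-12 IM and 32808 in SBRT IM, against 21395 in unirradiated IM. Its deposited log2 fold change after the combination was 1.18 ± 0.11, adjusted p = 3.0e-25. Every treated group thus stood above the unirradiated group, the combination highest. The other hexokinase that passed was Hk1, with an implied level of 7250 in combination IM and 4896 in unirradiated IM (0.57 ± 0.16, adjusted p = 0.010). Hk2 had 0.31 ± 0.11, adjusted p = 0.078 and did not pass. Of the phosphofructokinases, Pfkm rose (0.82 ± 0.21, adjusted p = 0.0041), to an implied 521 in combination IM against 295 in unirradiated IM. Pfkp, the platelet form, rose too (0.45 ± 0.11, adjusted p = 0.0011), while the liver form Pfkl had 0.17 ± 0.12, adjusted p = 0.55 and did not pass.

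Past phosphofructokinase the called genes ran through the aldolases to glyceraldehyde phosphate. Aldoa, the aldolase that splits the sugar phosphate in most tissues, had a deposited log2 fold change of 0.51 ± 0.13, adjusted p = 0.0026. The less abundant Aldoc rose further, with 0.79 ± 0.19, adjusted p = 0.00096 and an implied level of 1042 in combination IM against 602 in unirradiated IM. Tpi1, which interconverts the products of that split, had 0.51 ± 0.13, adjusted p = 0.0029. Gapdh, the dehydrogenase often used as a reference gene, had 0.43 ± 0.15, adjusted p = 0.045 in the deposited table. Of the later enzymes Pkm rose, with 0.40 ± 0.13, adjusted p = 0.030. Pgk1, Pgam1, Eno1 and Ldha, the other abundant later enzymes, lay between 0.17 and 0.35 and did not pass. Pgk1 had 0.35 ± 0.13, adjusted p = 0.094 and Ldha 0.25 ± 0.14, adjusted p = 0.34. Gpi1, an abundant earlier enzyme, had 0.35 ± 0.13, adjusted p = 0.092 and did not pass either. Among the enzymes Eno2, the neuronal enolase, was alone below 0 at -0.22 ± 0.16, adjusted p = 0.54, also not passing.

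The regulatory enzymes went in opposite directions in combination IM. Pfkfb3 and Pfkfb4 both make and break down the fructose bisphosphate that activates phosphofructokinase, and Pfkfb3 is known as the strongly kinase-active form. Pfkfb3 rose (0.70 ± 0.14, adjusted p = 5.5e-05), to an implied level of 11305 in combination IM against 6945 in unirradiated IM. Pfkfb4 fell (-0.40 ± 0.13, adjusted p = 0.027), to 3021 in combination IM against 3995 in unirradiated IM. Pdk1, the kinase that keeps pyruvate out of the citric acid cycle, had 0.35 ± 0.15, adjusted p = 0.14 and did not pass.

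Of the HIF targets outside glycolysis, 2 of 8 rose in combination IM. Ndrg1, a stress-induced gene linked to growth arrest, had a deposited log2 fold change of 0.77 ± 0.17, adjusted p = 0.00017, with an implied level of 5526 in combination IM against 3233 in unirradiated IM. Mif, a cytokine gene, had 0.55 ± 0.14, adjusted p = 0.0031. Bnip3, which drives removal of mitochondria, was the member nearest to the threshold outside it, at 0.50 ± 0.17, adjusted p = 0.057. The blood vessel growth factor gene Vegfa had 0.10 ± 0.17, adjusted p = 0.87, and Mxi1 and P4ha1 lay at -0.07 and -0.01, none of them passing. Hif1a itself had -0.22 ± 0.13, adjusted p = 0.43, and neither Egln1 nor Egln3, the prolyl hydroxylases, passed. No transporter passed either: Slc2a1 had 0.30 ± 0.15, adjusted p = 0.28 and Slc16a3 0.18 ± 0.13, adjusted p = 0.51.

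The IM combination calls depended on the spread assumed for the Wald statistics. Over all genes tested these had a robust spread of 1.28, where the normal test assumes 1, and after division by it 5 of the 13 genes still passed: Hk3, Pfkp, Aldoc, Pfkfb3 and Ndrg1. The other eight then had adjusted p between 0.067 for Aldoa and 0.31 for Gapdh. The share of all genes that passed after division by the spread was not computed, so the 5 stand without a background. Adjustment over all genes with a p put Gapdh at 0.078 and Pkm at 0.052, and adjustment over genes with a level of at least 50 put Bnip3 at 0.045.

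Markers of cell state moved in IM together with the glycolysis genes. Of 7 macrophage markers, 3 rose and 1 fell in combination IM, and they summed to an implied 249823 in combination IM against 209377 in unirradiated IM. Of 7 monocyte markers, 1 rose and 4 fell, summing to 175093 in combination IM against 204625 in unirradiated IM. Of 5 dendritic cell markers, Clec9a rose and Cd209a and Flt3 fell, the lowest log2 fold change being -2.31 for Cd209a, and the list summed to 556 in combination IM against 971 in unirradiated IM. Of 4 endothelial markers, Pecam1 rose, and they summed to 1237 in combination IM against 798 in unirradiated IM. Of 7 epithelial and 6 acinar cell markers tested, 1 each fell. No marker of these lists was at 0. Their part in the rise of the glycolytic enzymes was not tested. Hk3 also rose in TAM, where the macrophage markers summed to 603848 in the combination group and 668338 in the unirradiated group. The part of the macrophage markers in the TAM rise of Hk3 was not tested either.

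**Figure D3:**
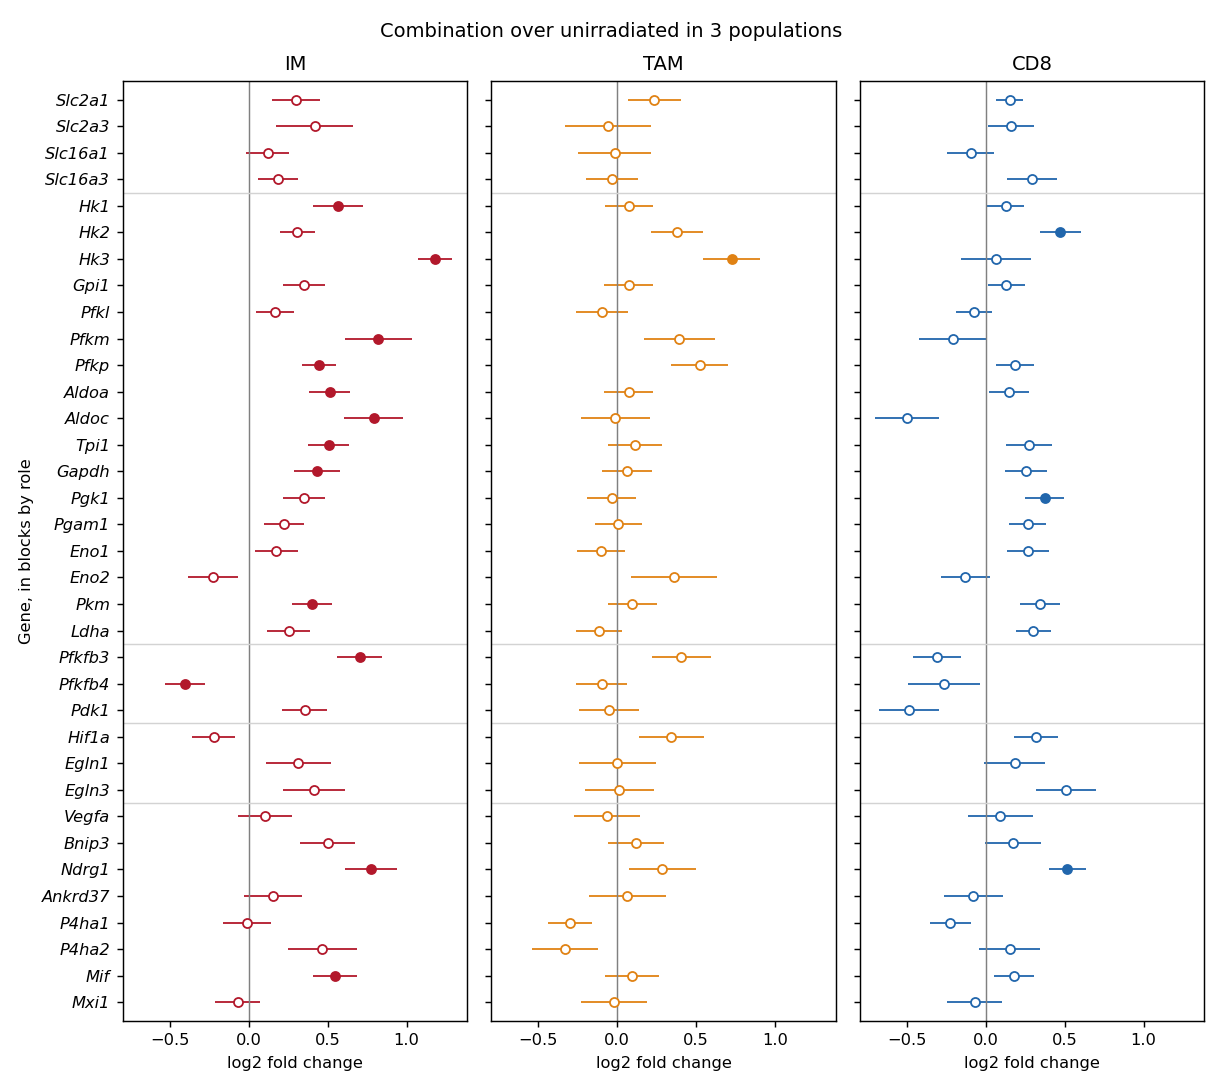
Points show the deposited log2 fold change of the combination over unirradiated tumour (horizontal axis) for each gene (vertical axis, in blocks by role) in IM, TAM and CD8, with bars of 1 standard error. Filled points had an adjusted p below 0.05: 13 in IM, 1 in TAM and 3 in CD8.

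Single treatments moved fewer of the genes in IM, with most values on the same side. After IL-12 alone 3 of 35 rose and none fell in the deposited table. These are 8.57%, beside 3.24% of all genes tested and 5.43% of those with a level of at least 1000. The median of the 35 was 0.26 against -0.02 over all genes, and all 17 enzymes had positive values. The 3 that rose were Hk3 (0.88 ± 0.11, adjusted p = 1.5e-13), Aldoa (0.43 ± 0.13, adjusted p = 0.033) and Pfkfb3 (0.46 ± 0.14, adjusted p = 0.045). Aldoa and Pfkfb3 missed the threshold when the statistics were divided by their robust spread of 1.11, with adjusted p of 0.11 and 0.13. Pfkp, at 0.33 ± 0.11, adjusted p = 0.052, and Tpi1, at 0.40 ± 0.13, adjusted p = 0.057, lay nearest outside the threshold, and both passed, at 0.044 and 0.049, with adjustment over genes with a level of at least 50. In IL-12 IM 5 of 7 monocyte markers were also called, 1 higher and 4 lower. Of 7 macrophage markers 1 rose and 1 fell, and of 5 dendritic cell markers 2 fell. Of 6 epithelial markers tested 1 fell, and of 6 acinar cell markers 1 rose. The part of these markers in the 3 member calls was not tested. After SBRT alone Hk3 was the 1 member called (0.62 ± 0.11, adjusted p = 2.0e-05). This call is 2.86% of 35, beside 0.519% of all genes tested and 0.905% of those with a level of at least 1000. The median was 0.28 against -0.02 over all genes, 29 of 35 values were positive, and the next member, Pfkl, had 0.38 ± 0.12, adjusted p = 0.16. These IM values and those after the combination are all relative to the same 3 unirradiated libraries.

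**Figure D4:**
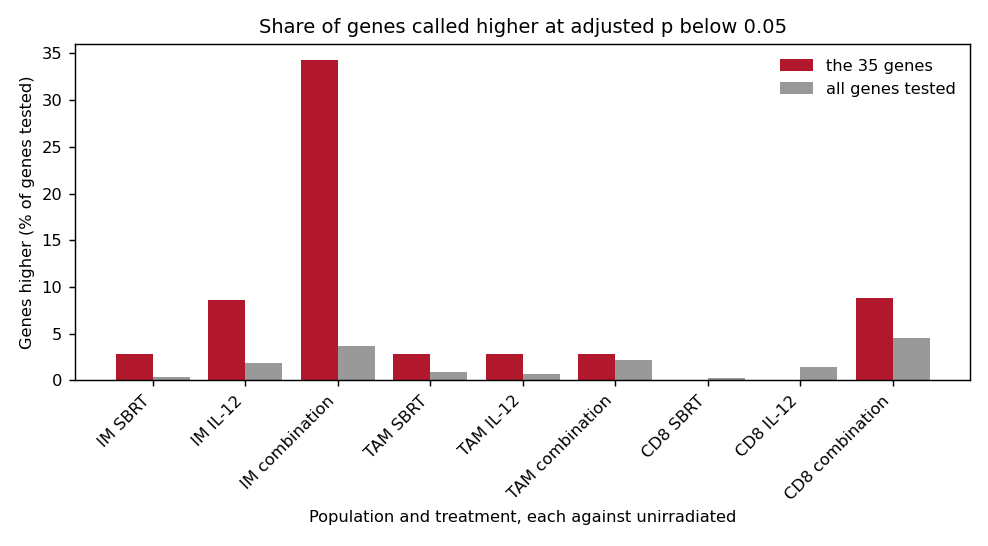
Bars show the percent of genes tested that were higher at a deposited adjusted p below 0.05 (vertical axis) in each of the 9 comparisons (horizontal axis), for the 35 genes and for all genes tested. In combination IM the shares are 34.3% and 3.69%, and in combination CD8 8.82% and 4.51%.

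In TAM Hk3 was the 1 member called, in all 3 comparisons. Its implied mean level was 44808 in SBRT TAM, 47112 in IL-12 TAM and 47977 in combination TAM, against 28985 in unirradiated TAM. The deposited log2 fold changes were 0.63 ± 0.18, adjusted p = 0.030 after SBRT, 0.70 ± 0.17, adjusted p = 0.0067 after IL-12 and 0.73 ± 0.18, adjusted p = 0.0036 after the combination. The treated groups lay close together and all above the unirradiated group. When the adjustment took in all genes with a p, the call after SBRT was lost, at an adjusted p of 0.053. A single member of 35, 2.86%, stands beside 2.08% of all genes tested after SBRT, 0.935% after IL-12 and 4.21% after the combination. The median of the 35 log2 fold changes was -0.09 after SBRT, 0.06 after IL-12 and 0.06 after the combination, against 0.00, -0.01 and 0.00 over all genes tested, and 11, 25 and 21 of 35 values were positive.

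The remaining 16 enzymes had a median of -0.05 after SBRT, 0.08 after IL-12 and 0.07 after the combination in TAM, and none passed. Pfkp was nearest to the threshold after IL-12, at 0.49 ± 0.17, adjusted p = 0.21, and after the combination, at 0.52 ± 0.18, adjusted p = 0.077. After SBRT that place went to P4ha2, a subunit of the collagen prolyl hydroxylase, at -0.46 ± 0.21, adjusted p = 0.37. TAM libraries also held fibroblast transcripts, whose 6 markers summed to an implied 1647 in SBRT TAM, 2219 in IL-12 TAM and 1791 in combination TAM, against 2792 in unirradiated TAM, with no marker at 0. Epithelial markers, 8 in all, summed to 1690 in SBRT TAM, 2191 in IL-12 TAM and 2729 in combination TAM, against 2579 in unirradiated TAM. Their part in the TAM values of P4ha2 and the other collagen and HIF genes was not tested. Of 7 monocyte markers 1 rose and 1 fell in each of the 3 TAM comparisons. Of 7 macrophage markers 1 fell in combination TAM, and of 5 dendritic cell markers 1 rose in IL-12 TAM. Of 4 B cell markers 1 fell in SBRT TAM, and of 4 endothelial markers 1 rose in combination TAM. The part of these markers in the TAM rise of Hk3 was not tested.

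CD8 cells showed few calls, at shares near the background. After the combination 3 of 34 members with an adjusted p rose and none fell in the authors' deposited table, 8.82% beside 7.47% of all genes tested. Hk2 had an implied level of 2076 in combination CD8 and 1495 in unirradiated CD8, a log2 fold change of 0.47 ± 0.13, adjusted p = 0.0094. Pgk1, which makes the first ATP of the pathway, rose as well (0.37 ± 0.12, adjusted p = 0.038). Ndrg1 also rose (0.52 ± 0.12, adjusted p = 0.00067), to 866 in combination CD8 against 605 in unirradiated CD8. The median over the members was 0.16, against -0.03 over all genes tested, and 23 of 34 were positive. Pkm (0.34 ± 0.12, adjusted p = 0.070) and Ldha (0.30 ± 0.11, adjusted p = 0.075) lay nearest outside the threshold. With the statistics divided by their robust spread of 1.40, none of the 3 passed, and the adjusted p were 0.28 for Hk2, 0.46 for Pgk1 and 0.092 for Ndrg1. Pgk1 also missed it, at 0.079, when all genes with a p entered the adjustment.

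After IL-12 alone 1 of 33 members passed in CD8, and it fell, 3.03% beside 2.52% of all genes tested. Pdk1 had an implied level of 2339 in IL-12 CD8 and 3897 in unirradiated CD8, a deposited log2 fold change of -0.74 ± 0.19, adjusted p = 0.011. In the other treated CD8 groups Pdk1 had -0.37 ± 0.19, adjusted p = 0.46 after SBRT and -0.49 ± 0.19, adjusted p = 0.099 after the combination, not passing. With the statistics divided by their robust spread of 1.30 the call after IL-12 was lost, at an adjusted p of 0.31. After SBRT alone none of the 35 members passed in CD8 by the deposited DESeq2 test, beside 0.471% of all genes tested, and 6 had an unadjusted p below 0.05. None passed under the alternatives either. The nearest was Slc2a1, the main glucose transporter, at -0.25 ± 0.08, adjusted p = 0.17.

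CD8 libraries carried myeloid transcripts at a low level. The 7 macrophage markers summed to an implied 6907 in SBRT CD8, 5450 in IL-12 CD8 and 4283 in combination CD8, against 5973 in unirradiated CD8, with none at 0 and none called. In combination CD8 all 7 were below 0, with a median of -0.49, and 6 had an unadjusted p below 0.05 in the deposited Wald test. None had such a p in SBRT CD8 or IL-12 CD8. Hk3, at a mean level of 557 in CD8 against 35519 in IM and 42764 in TAM, had deposited log2 fold changes in CD8 of 0.56 ± 0.23, adjusted p = 0.30 after SBRT, 0.23 ± 0.22, adjusted p = 0.70 after IL-12 and 0.07 ± 0.22, adjusted p = 0.92 after the combination. The part of the myeloid transcripts in these Hk3 values was not tested.

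Markers of vessel and connective tissue cells also moved in CD8. Of 3 endothelial markers tested in combination CD8, Pecam1 and Kdr fell, and the list of 4 summed to 1168 in combination CD8 against 1881 in unirradiated CD8. After IL-12 Pecam1 fell, 1 of 2 tested, with a sum of 1197 in IL-12 CD8. Of 3 fibroblast markers tested in combination CD8, the collagen gene Col1a2 fell, and the list of 6 summed to 422 in combination CD8 against 609 in unirradiated CD8. None of 9 genes of dissociation stress passed the deposited DESeq2 test in combination CD8, but 7 had an unadjusted p below 0.05, with log2 fold changes of both signs. No marker of these lists was at 0. Their part in the CD8 calls of Hk2, Pgk1, Ndrg1 and Pdk1 was not tested.

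Whether the combination differed from a single treatment was tested by a normal test on the difference of the deposited effects. Within a population none of the 35 members passed, and the smallest adjusted p were 0.077 in IM, 0.27 in CD8 and 1.0 in TAM. These 12 tests called between 0% and 0.204% of all genes. That smallest value in IM was Hk3, which was 0.56 ± 0.15 higher on the log2 scale after the combination than after SBRT, in a test that had 2 members at an unadjusted p below 0.05. The test leaves out the covariance through the shared unirradiated libraries, which makes it conservative. With the control variance removed, Hk3 passed at an adjusted p of 5.5e-05 and Aldoc, 0.64 ± 0.26 higher, at 0.049. In CD8, Slc2a1 was 0.40 ± 0.12 higher after the combination than after SBRT (adjusted p = 0.27, and 0.00065 with the control variance removed), where 0.0755% of all genes passed. Setting the combination against the sum of both single effects, Slc2a1 in CD8 was 0.51 ± 0.14 higher, at an adjusted p of 0.96, or 0.034 with the control variance removed.

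The other comparisons of treatments held few members at an unadjusted p below 0.05, and none passed the normal test after adjustment. In IM there was 1 for the combination minus IL-12, where 0% of all genes were called, 0 for IL-12 minus SBRT (0.0244%) and 0 for the combination minus the sum (0.00305%). In TAM there was 1 for the combination minus SBRT (0.00309%), 0 for the combination minus IL-12 (0.0834%), 0 for IL-12 minus SBRT (0.108%) and 1 for the combination minus the sum (0.0124%). In CD8 there were 3 for the combination minus SBRT, 2 for the combination minus IL-12 (0.00302%), 0 for IL-12 minus SBRT (0.0211%) and 2 for the combination minus the sum (0.00302%).

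Between populations the same treatment gave different changes for 5 members. The effects in IM and CD8 come from separate libraries, and their difference after the combination passed for Pfkfb3, Hk3, Aldoc, Pdk1 and Pfkm, 5 of 35 beside 1.89% of all genes tested. Pfkfb3 had a log2 fold change of 0.70 in IM and -0.31 in CD8, a difference of 1.01 ± 0.21 (adjusted p = 0.00035). Aldoc had 0.79 in IM and -0.50 in CD8 (1.29 ± 0.27, adjusted p = 0.00055), and Hk3 1.18 in IM and 0.07 in CD8 (1.11 ± 0.25, adjusted p = 0.0013). The mean level of Hk3 was 557 in CD8 against 35519 in IM. The part of myeloid transcripts in its CD8 value was not tested. Pdk1 differed by 0.84 ± 0.24 (adjusted p = 0.028) and Pfkm by 1.02 ± 0.30 (adjusted p = 0.042). All 5 differences were positive. After IL-12 alone Pdk1 again differed, at 0.21 in IM and -0.74 in CD8 (0.95 ± 0.24, adjusted p = 0.024), the 1 member called beside 0.466% of all genes tested. These calls depended on the spread assumed for the statistics. With each standard error multiplied by the robust spread of its own deposited table, none of the 5 passed after the combination, at adjusted p between 0.079 for Pfkfb3 and 0.67 for Pfkm, and Pdk1 after IL-12 had 0.38. The statistics of the differences themselves had a robust spread of 0.90 after the combination and 0.86 after IL-12, and after division by it all 6 calls passed, with adjusted p between 2.1e-05 and 0.010. After SBRT none differed between IM and CD8, where 0.02% of all genes did and 6 members had an unadjusted p below 0.05.

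IM and TAM were not shown to differ for any member by the normal test as first run. After the combination 29 of 35 differences were positive, with a median of 0.31, and the smallest adjusted p was 0.24, for Aldoc (0.80 ± 0.29). That normal test called 0.911% of all genes, and 7 members had an unadjusted p below 0.05. After SBRT the smallest adjusted p was 0.39, for P4ha2 (0.87 ± 0.30), with 8 members at an unadjusted p below 0.05 and 0.263% of all genes called. After IL-12 it was 1.0, with 3 members at an unadjusted p below 0.05 and 0.0598% of all genes called. TAM and CD8 were not shown to differ for any member either: after the combination the smallest adjusted p was 0.096, for Pfkfb3 (0.72 ± 0.24), and Hk3 differed by 0.66 ± 0.29 at an adjusted p of 0.32, while 2.41% of all genes passed and 4 members had an unadjusted p below 0.05. The same pair had 4 members at that level after IL-12 and 0 after SBRT, where 0.222% and 0.643% of all genes passed. Most TAM groups had 2 libraries.

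The promoters of the members were searched for the HIF core letters. Shown here are the 250 bases before the transcription start of 6 genes that passed in at least 1 comparison, spanning the pathway's order. They are RefSeq promoter sequences of build GRCm38.p6, read 5′ to 3′ on the gene's strand, with ACGTG and GCGTG and their reverse complements CACGT and CACGC in capitals. Where a gene had several promoters, the one with the most cores is shown. Every gene shown has a core, and called members without one are named below.
Hk3: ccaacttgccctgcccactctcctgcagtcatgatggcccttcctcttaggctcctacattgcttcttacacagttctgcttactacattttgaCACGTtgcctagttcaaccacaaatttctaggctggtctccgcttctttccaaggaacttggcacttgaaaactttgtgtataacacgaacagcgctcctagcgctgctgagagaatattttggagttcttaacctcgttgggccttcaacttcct
Hk2: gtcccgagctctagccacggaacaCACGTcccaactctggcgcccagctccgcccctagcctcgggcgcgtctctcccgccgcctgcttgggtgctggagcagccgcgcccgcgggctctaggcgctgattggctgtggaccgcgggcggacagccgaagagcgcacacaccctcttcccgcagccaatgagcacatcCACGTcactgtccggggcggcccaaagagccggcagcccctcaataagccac
Pfkp: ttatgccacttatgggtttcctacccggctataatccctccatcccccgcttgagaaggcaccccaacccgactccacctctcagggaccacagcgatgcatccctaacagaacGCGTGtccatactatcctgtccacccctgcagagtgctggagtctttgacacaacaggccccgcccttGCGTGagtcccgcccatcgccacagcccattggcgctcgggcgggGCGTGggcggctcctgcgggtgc
Aldoa: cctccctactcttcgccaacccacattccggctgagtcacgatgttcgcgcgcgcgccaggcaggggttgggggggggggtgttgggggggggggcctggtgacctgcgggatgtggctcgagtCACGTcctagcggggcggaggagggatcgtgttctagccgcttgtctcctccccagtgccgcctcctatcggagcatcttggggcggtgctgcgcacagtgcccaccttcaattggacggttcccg
Pgk1: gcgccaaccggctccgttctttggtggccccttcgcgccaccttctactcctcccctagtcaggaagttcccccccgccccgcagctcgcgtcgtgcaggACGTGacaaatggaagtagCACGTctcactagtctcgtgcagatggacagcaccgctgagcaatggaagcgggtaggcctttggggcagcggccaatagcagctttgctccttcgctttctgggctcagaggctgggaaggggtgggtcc
Pfkfb3: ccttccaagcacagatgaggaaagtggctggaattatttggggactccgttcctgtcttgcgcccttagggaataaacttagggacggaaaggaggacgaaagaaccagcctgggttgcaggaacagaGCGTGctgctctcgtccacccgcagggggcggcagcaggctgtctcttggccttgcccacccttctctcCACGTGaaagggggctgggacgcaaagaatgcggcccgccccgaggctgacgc
Hk3 (chr13:55021386-55021635, minus strand), the member with the most calls, holds a single core, with its first base 156 bases before the start. Hk2 (chr6:82774455-82774704, minus strand) holds 2 and Pfkp (chr13:6648772-6649021, minus strand) 3. Aldoa (chr7:126799255-126799504, minus strand) holds 1 in the promoter shown, which is 1 of its 3 promoters in the table, and Pgk1 (chrX:106186850-106187099, plus strand) holds 2, which lie 150 and 131 bases before the start. In Pfkfb3 (chr2:11502091-11502340, minus strand), whose promoter shown is 1 of 2, the palindrome CACGTG, 53 bases before the start, counts as a match on each strand, which with a further core makes 3.

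Of the 35 genes 33 had an entry in the promoter table, and Slc2a3 and Ndrg1 had none. A core on either strand was found in 38 of their 49 promoters, 77.6%, against 38.6% of all 32851 promoters of the same window. These promoters hold more CpG than most, with a median of 14 CpG against 6, and both GCGTG and ACGTG contain that pair of bases, so the shares are not comparable at equal composition. A core was found in 72.0% of 25 promoters of members called in any comparison and in 83.3% of 24 promoters of members never called. Ldha and Bnip3, with 5 cores in a promoter, and Slc16a1 and Ankrd37, with 4, had the most matches, and none of the 4 passed in any comparison. Tpi1 and Mif, which rose in combination IM, had none, nor had Gpi1 and Eno2. The motif of interferon-activated factors, TTCNNNGAA, was found in 4.08% of the members' promoters, against 7.02% of all promoters. A match describes these letters alone.

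Several of the enzymes have near-identical copies elsewhere in the genome. A search of GENCODE M21 transcripts on build GRCm38 for other genes sharing at least 200 bases at 97% identity or more found copies with rows in the tables for 6 of the 35 members. Levels of gene and copy are set side by side here as normalised read levels, not per kilobase. For Eno1 the copy Eno1b, identical over 99.5% of 1736 aligned bases, had 48.9% of the level of Eno1 in IM, 49.6% in TAM and 48.7% in CD8. Pgam1-ps2 had 38.1% of the level of Pgam1 in IM, 37.9% in TAM and 38.0% in CD8. Pgk1-rs7 had 41.6% of the level of Pgk1 in IM, 39.8% in TAM and 42.3% in CD8, and Tpi-rs11 6.31%, 6.31% and 6.38% of that of Tpi1. These ratios hardly moved between cell types. The fold changes of copy and gene lay within 0.1 on the log2 scale in 43 of 45 pairs, and where Pgk1 rose in combination CD8 its copy had 0.39 (adjusted p = 0.022) against 0.37. Where reads of a gene and its copy cannot be told apart, the levels of Eno1, Pgam1, Pgk1 and Tpi1 are uncertain. For Ldha and Gapdh the copies summed to under 2% of the gene's level.

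**Figure D5:**
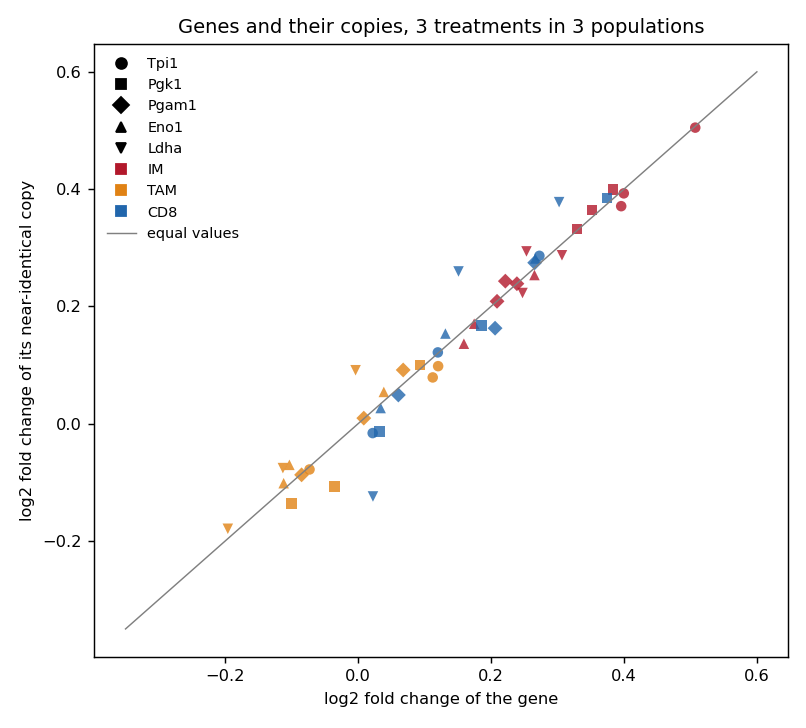
Each point is 1 of 3 treatments in 1 population, with the deposited log2 fold change of an enzyme gene on the horizontal axis and that of its near-identical copy on the vertical axis. Of the 45 points 43 lie within 0.1 of the line of equal values, and the largest gap is 0.15.

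Library strand was not marked, so reads over exons shared with a gene on the other strand also cannot be assigned. For the called members that sharing was small, at most 5.58% of the exon bases of Pfkp (with Pitrm1). The name Aldoa covers 2 GENCODE M21 genes on chromosome 7.

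Few other genes of these pathways passed the test. Of 20 other glycolytic enzymes and transporters, Bpgm, which makes the oxygen-release effector of red cells, fell in SBRT IM (-0.73 ± 0.19, adjusted p = 0.038), and Ldhb, the heart form of lactate dehydrogenase, fell in IL-12 CD8 (-0.72 ± 0.22, adjusted p = 0.044). No other gene of that list passed. In combination IM 0 of 13 tested passed, with a median of -0.05. None of the 7 pentose phosphate pathway genes passed in any of the 9 deposited comparisons, and their median in combination IM was -0.05. Of 16 genes of pyruvate dehydrogenase and the citric acid cycle, the subunit genes Sdhb (0.44 ± 0.09, adjusted p = 8.0e-05) and Suclg1 (0.40 ± 0.12, adjusted p = 0.016) rose in combination IM, and Cs, citrate synthase, rose in combination CD8 (0.26 ± 0.09, adjusted p = 0.038). The list's median in combination IM was 0.04. The 9 mitochondrially encoded genes had negative values in every IM comparison, and none was called. After the combination their median was -0.32 and their summed implied level 429838, against 519012 in unirradiated IM. They were negative in every TAM comparison too, with medians of -0.28 after SBRT, -0.32 after IL-12 and -0.08 after the combination, none called.

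Further HIF subunits and targets changed in scattered ways. Of 8 subunits and regulators, Arnt, the constant partner of Hif1a, fell in SBRT CD8 (-0.58 ± 0.15, adjusted p = 0.032), and Epas1, the alternative alpha subunit, rose in combination CD8 (0.69 ± 0.23, adjusted p = 0.044). Of the 17 further HIF targets reported here, Adm, the vasodilator adrenomedullin, fell in TAM after SBRT (-1.47 ± 0.24, adjusted p = 9.1e-07) and IL-12 (-1.01 ± 0.23, adjusted p = 0.0046), and the collagen cross-linker Lox fell in combination TAM (-0.64 ± 0.19, adjusted p = 0.021). The mean level of Lox in TAM was 45.5. Adm was not called in combination TAM. Of 5 fibroblast markers tested, 2 also fell in combination TAM and 1 in SBRT TAM. Whether they bear on the Lox and Adm values was not tested. In CD8, Kdm3a, a histone demethylase, fell after IL-12 (-0.43 ± 0.11, adjusted p = 0.014) and the combination (-0.46 ± 0.11, adjusted p = 0.0023), and Bnip3l fell after the combination (-0.35 ± 0.10, adjusted p = 0.0082).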

How the data were processed

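RNA was sequenced from 33 libraries of sorted IM, TAM and CD8 cells. The submitters' processing notes name STAR 2.6.0c, Trimmomatic 0.36, Salmon, FastQC 0.11.8, featureCounts, Subread and the build GRCm38. Their roles and the annotation release are not given in the sources used here. Per the labels' protocols, libraries came from a TruSeq V2 kit, which does not keep the strand.

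The authors deposited 9 tables, which per the file headers hold DESeq2 results, with no version or design formula given. The mean level is a normalised signal deposited by the authors and had the same values in all 3 tables of each population, as 1 fit of 4 groups gives. The log2 fold changes deposited by the authors were shrunken, since the standard error implied by the statistic fell at low levels, which understates changes of low genes. A score, the Wald statistic, was deposited by the authors, and its 2-sided normal probability matched their p-value. Adjusted p-values deposited by the authors cover 13876 to 19273 genes per table. With no counts per library, depth is unknown and edgeR could not be run.

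Group levels were implied from the mean level and the 3 fold changes, weighted by libraries per group. Differences between deposited effects were tested with a 2-sided normal test, each effect being its Wald statistic times a standard error common to the population's tables. Adjustment was by Benjamini and Hochberg over every gene with a p in both tables, and the script was tested on simulated data. There were 21 such tests, of which 9 were between populations. Alternatives were an empirical null, a minimum level of 50, all genes with a p, own standard errors and the control variance removed. Robust spreads were applied to the differences after seeing the data. Values are given in full for every member called in any comparison, the others by range and count, with the nearest to the threshold named; of the pathway lists, every called gene is named, and 1 gene of the further HIF targets is not reported here and is left out of that list's counts. The members, lists and tests were chosen with earlier results of these data known. One list name, Ero1l, stands for the gene also called Ero1a. Copies were found with BLAST+ 2.17.0, and statistics were computed in Python 3.11.15 with numpy 2.4.6, pandas 2.3.3 and scipy 1.17.1.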

Additional observations from a re-analysis of the deposited data

Results flagged for a closer look

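The same treatment changed 5 members differently in IM and CD8, and the difference itself passed the normal test with Benjamini-Hochberg adjustment over all genes. After the combination the log2 difference, IM minus CD8, was 1.29 ± 0.27 for Aldoc (adjusted p = 0.00055), 1.11 ± 0.25 for Hk3 (adjusted p = 0.0013), 1.02 ± 0.30 for Pfkm (adjusted p = 0.042), 1.01 ± 0.21 for Pfkfb3 (adjusted p = 0.00035) and 0.84 ± 0.24 for Pdk1 (adjusted p = 0.028). After IL-12 alone it was 0.95 ± 0.24 for Pdk1 (adjusted p = 0.024). For Aldoc, Pfkm, Pfkfb3 and Pdk1 the combination effect was above 0 in IM and below 0 in CD8. Hk3 had a mean level of 557 in CD8 against 35519 in IM, and the part of myeloid transcripts in its CD8 value was not tested. With each standard error multiplied by the robust spread of its own deposited table none of these 6 differences passed, at adjusted p between 0.079 and 0.67. With no values per library, how many libraries showed each direction is unknown.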

How the results depend on the processing

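Counts of called members, as first reported and under each alternative, moved as follows. Shares of all genes under the alternatives were not computed, so the alternative counts stand without a background. With the Wald statistics divided by their robust spread, the count was 5 in place of 13 for combination IM, 1 in place of 3 for IL-12 IM, 0 in place of 3 for combination CD8 and 0 in place of 1 for IL-12 CD8. With adjustment over genes with a level of at least 50 it was 5 in place of 3 for IL-12 IM and 1 in place of 0 for the combination minus SBRT in IM, where Hk3 passed at an adjusted p of 0.033. With all genes with a p it was 1 in place of 3 for IL-12 IM and 0 in place of 1 for SBRT TAM. With the control variance removed it was 2 in IM and 1 in CD8 for the combination minus SBRT, and 1 in CD8 for the combination minus the sum of both treatments, each in place of 0. A pair of alternatives for the differences was chosen after seeing the data. With each standard error multiplied by the robust spread of its deposited table, the count for IM minus CD8 was 0 in place of 5 after the combination and 0 in place of 1 after IL-12, and no other difference called a member. With the statistics of a difference divided by their own robust spread, which was below 1 in all 21 tests, the count was 5 in place of 5 for IM minus CD8 after the combination and 2 in place of 1 after IL-12. There it was 1 in place of 0 for TAM minus CD8 after IL-12 (Pdk1, adjusted p = 0.017) and for IM minus TAM after SBRT (P4ha2, 0.023) and the combination (Aldoc, 0.046). Within IM it was 5 for the combination minus SBRT, 2 for the combination minus IL-12 and 2 for IL-12 minus SBRT. Within TAM it was 1 for the combination minus SBRT, 1 for IL-12 minus SBRT and 2 for the combination minus the sum, and within CD8 4, 2 and 2 for the combination minus SBRT, IL-12 and the sum, all in place of 0. Other counts stayed within 1.5 times under the alternatives run for them. The division by spread and the use of all genes with a p were planned for the deposited comparisons only. With own standard errors 2 directions turned, those of the IL-12 difference TAM minus CD8 for Tpi1 (0.00045) and Pkm (0.00039), neither called. The alternatives change the number of genes adjusted over or the variance used, and the cause of these shifts was not tested. Over the alternatives the adjusted p of Hk3 in combination IM ranged from 2.2e-25 to 7.0e-15, and that of Gapdh from 0.035 to 0.31. No paired analysis was possible because the deposited tables hold no values per library, and for the same reason no library was left out.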
